A study of Homo sapiens with 6 samples.

Results

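The nuclear-encoded subunits of the mitochondrial respiratory chain and ATP synthase were followed through 6 expression arrays of mitotically arrested human cells. The rows were chosen by gene symbol alone: symbols that start with NDUFA, NDUFB, NDUFC, NDUFS, NDUFV, UQCR or ATP5, the COX symbols numbered 4 to 8, and SDHA, SDHB, SDHC, SDHD and CYC1. This gave 87 of the 37879 rows of the table, each row being 1 gene. Of these, 78 name a subunit: 36 of complex I, 4 of complex II, 8 of complex III, 16 of complex IV and 14 of complex V. The other 9 carry such a symbol without naming a subunit: the complex I assembly factors NDUFAF1, NDUFAF2 and NDUFAF3, the gene copies UQCRHL, ATP5EP2 and COX6BP1, and ATP5S, ATP5SL and COX4NB, whose present RefSeq symbols are DMAC2L, DMAC2 and EMC8.

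Complexes I to IV, in the inner mitochondrial membrane, pass electrons from NADH and succinate to oxygen. Complexes I, III and IV pump protons across the membrane, complex II does not, and complex V uses the returning protons to make ATP. A few subunits are encoded in mitochondrial DNA and all others in the nucleus. Each assembled complex needs transcripts from more than 1 nuclear chromosome. The table gives a chromosome for 77 of the 78 subunit rows, and these lay on 21 chromosomes, with at most 11 rows on 1 (chromosome 19). It gives none for NDUFA13, whose RefSeq promoter is also on chromosome 19. Staufen1 (Stau1) binds double-stranded RNA and takes part in the transport, translation and decay of the mRNAs it binds.

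All 6 samples were HEK293T cells, an immortalised line derived from human embryonic kidney, held in prometaphase with nocodazole, a drug that depolymerises microtubules (50 ng/ml for 15 h on the labels). The 3 control samples received the empty vector and the 3 Stau1 samples plasmids coding for Stau155-FLAG, the shorter Stau1 isoform with a tag, under an RSV promoter in a transient transfection. Total RNA was hybridised to Illumina bead arrays, and the comparison asked whether expression of the tagged protein altered the transcripts of arrested cells. Nothing in the labels says whether the 3 samples of a group came from separate cultures, so the p-values measure only the spread between these samples, which may be technical. In RNA from a whole culture, fewer cells that express a gene and less of its RNA per cell cannot be told apart.

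Between 12730 and 13469 rows were detected per array (detection p under 0.05), and the 13285 rows detected on at least 3 of 6 arrays were kept. Over these, any 2 arrays correlated at 0.987 to 0.996. The STAU1 row had log2 intensities of 11.21, 11.39 and 11.37 in control and 11.41, 11.53 and 11.48 in Stau1 replicates 1 to 3, a difference of 0.15 ± 0.09 (SE) with an adjusted p of 0.999 in limma. Whether its probe reads the plasmid's transcript is not given in the sources used here, so the row does not check the labels. By western blot, the study found the tagged protein in such cells at a lower level than endogenous Stau1. All 7 mitotic marker rows were detected on every array, as were INA, NEFL and NEFM of the rows listed for HEK293T cells. PAX2 was detected on 1 array and EYA1 on none. Of the marker rows of other cell types, PTPRC, CD3E, ALB, APOA1, CKM, MB, COL1A2, DCN and LUM were detected on no array. CD68, ACTA1 and COL1A1 were detected on all 6 at low intensities of 101 to 309, TTR on 3 and MYH7 on 1. ACTA1, a muscle actin, was 0.52 ± 0.23 (SE) higher on the log2 scale with Stau1 (adjusted p = 0.999 in limma), and no other of these marker rows had an unadjusted p under 0.05.

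Of the 87 rows, 78 were kept, and 76 of those were detected on all 6 arrays. Among subunits, 34 of 36 rows of complex I, all 4 of complex II, all 8 of complex III, 10 of 16 of complex IV and all 14 of complex V were kept. The gap in complex IV came from isoforms. Several subunits of cytochrome c oxidase exist as a general form and a form known from heart and skeletal muscle, lung or testis, and in 6 such pairs the general form was detected on all 6 arrays while its partner was not kept. COX4I1 had intensities of 19800, 22850 and 29420 in the controls and 24060, 24070 and 26640 with Stau1, before normalization. COX4I2, the form known from lung, had 82.05, 79.86 and 94.11 in the controls and 75.23, 86.46 and 93.67 with Stau1, with detection p-values of 0.335 to 0.586. COX4I2 was therefore not above background on any array of either group.

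The other 5 pairs showed the same split. COX6A1, COX6B1, COX7A2, COX7B and COX8A were detected on all 6 arrays at intensities of 5515 to 21030. COX6A2 and COX7A1, the striated muscle forms, were detected on none, with detection p-values of 0.519 to 0.883 and of 0.136 to 0.754. COX7B2 was detected on none. COX6B2 and COX8C, both known from testis, each passed the detection threshold on 1 array, control replicate 1, with detection p-values of 0.031 and 0.0422 there. Intensities over these 5 partner rows were 62.2 to 108 on all 6 arrays. Detection is a statement about each row against its own array's background, and the intensities of different probes are not compared with each other.

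**Figure D1:**
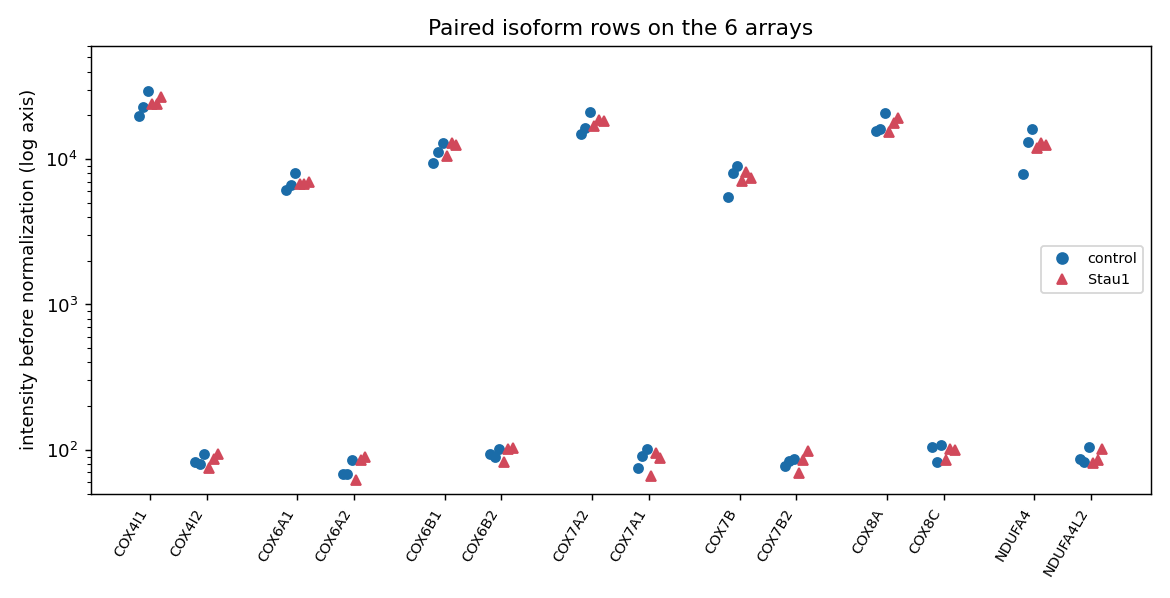
Intensity before normalization (log axis) of paired isoform rows, with 1 point per array, circles for the 3 control and triangles for the 3 Stau1 arrays. The general forms lie at 5515 and above on every array, and their partners at 108 and below on every array, with no separation of the groups.

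The remaining rows that were not kept were NDUFA4L2, an isoform partner of NDUFA4, NDUFB4, an accessory subunit of complex I, and COX6BP1, a pseudogene of COX6B1. None was detected on any array. The NDUFB4 row combined several probes and had intensities of 88.1 to 114 and detection p-values of 0.266 to 0.403. The row gives only a bound for what these probes read. NDUFA5 and NDUFS6 were kept with only 3 arrays each, at intensities of 92.1 to 125 and of 87.1 to 137.5, and their changes rest on signal close to background.

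The bases just before the RefSeq transcription start are shown for the 3 isoform pairs of complex IV in which the detected form has a match to an ETS core motif there and the partner has an entry too (a choice made after the matches were seen). The ETS core, CCGGAAG on either strand, is the motif of the factor family that includes GABP, a regulator of respiratory chain genes. Each sequence is the 100 bases before the start, in the gene's direction and build GRCh38.p14, with the motif in capitals.
COX6A1, chr12:120438013-120438112, plus strand: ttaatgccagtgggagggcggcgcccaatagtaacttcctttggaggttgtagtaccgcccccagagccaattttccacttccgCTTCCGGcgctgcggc
COX6A2, chr16:31428361-31428460, minus strand: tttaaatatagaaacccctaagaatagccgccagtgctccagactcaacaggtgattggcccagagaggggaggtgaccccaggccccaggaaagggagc
COX6B1, chr19:35648223-35648322, plus strand: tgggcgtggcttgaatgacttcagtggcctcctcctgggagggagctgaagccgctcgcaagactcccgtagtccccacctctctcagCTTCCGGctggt
COX6B2, chr19:55354720-55354819, minus strand: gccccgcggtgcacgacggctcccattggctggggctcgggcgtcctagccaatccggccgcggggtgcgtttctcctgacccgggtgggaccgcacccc
COX8A, chr11:63974520-63974619, plus strand: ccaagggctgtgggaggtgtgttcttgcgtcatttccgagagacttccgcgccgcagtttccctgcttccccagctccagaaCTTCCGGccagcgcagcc
COX8C, chr14:93347082-93347181, plus strand: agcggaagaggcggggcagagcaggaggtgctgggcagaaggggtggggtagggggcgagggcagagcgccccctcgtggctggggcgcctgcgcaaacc

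Of the 78 subunit rows, 63 matched a RefSeq promoter, taken as 250 bases before to 50 after the first listed start. The ETS core stood in 19 of these 63 promoters (30.2%), against 10.7% of all 27305 genes' promoters. It stood in 19 of the 57 that belong to kept rows and in 0 of the 6 that belong to rows that were not kept. The palindrome CGCATGCG, the core of the site of nuclear respiratory factor 1, stood in 10 of 63 (15.9%, against 2.19%), and AAGATGGC, the core of the YY1 site, in 10 of 63 (15.9%, against 3.03%), each searched on both strands. By complex, the ETS core was found in 5 of 31 promoters of complex I, 2 of 3 of complex II, 3 of 6 of complex III, 5 of 13 of complex IV and 4 of 10 of complex V. Split by kept rows as above, CGCATGCG stood in 9 of the 57 and 1 of the 6, and AAGATGGC in 10 of the 57 and 0 of the 6. With only 6 promoters of rows that were not kept, a link between motif and detection was not tested. The 3 motifs have different letters, and ATP5J, the F6 subunit of ATP synthase, held all 3. Median GC content was 61% in subunit promoters and 58.3% in all. The 27305 genes were not limited to those detected here, and promoters of other detected genes were not counted apart. These matches describe the sequence only, since no binding was measured.

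No row of the respiratory chain passed the test for a change between the groups. In limma 0 of these 78 had an adjusted p under 0.05, as did 0 of all 13285 kept rows (0%), and the lowest adjusted p among the 78 was 0.999. Without adjustment, 0 of the 78 had p under 0.05 in either direction, against 2.41% of all kept rows higher and 1.32% lower with Stau1, and the lowest was 0.147, of UQCR. The methods' t-test put 1 of the 78, ATP5S, below 0.05 without adjustment and 0 with it, against 462 and 0 of all 13285 kept rows. The values of the 3 Stau1 arrays lay wholly above those of the 3 controls for 0 of the 78 (4.51% of all kept rows) and wholly below for 2, UQCR and ATP5S (3.4% of all kept rows).

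The intervals show how large a change the spread between these samples leaves room for, on the quantile-normalized values. They do not cover differences between cultures if the samples of a group were technical replicates. All 78 changes were within 1.5-fold, from -0.21 (UQCR) to 0.21 (NDUFAB1) on the log2 scale, and 75 of them were within 1.1-fold. The 95% interval lay inside 1.5-fold in both directions for 76 of 78 rows, and the exceptions were NDUFAB1 and NDUFA5, both with an upper bound of 0.59. The median half-width of the interval was 0.21 for the 78 and 0.31 for all kept rows. The 78 were also brighter, with a median log2 intensity of 12.69 against 7.9.

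**Figure D2:**
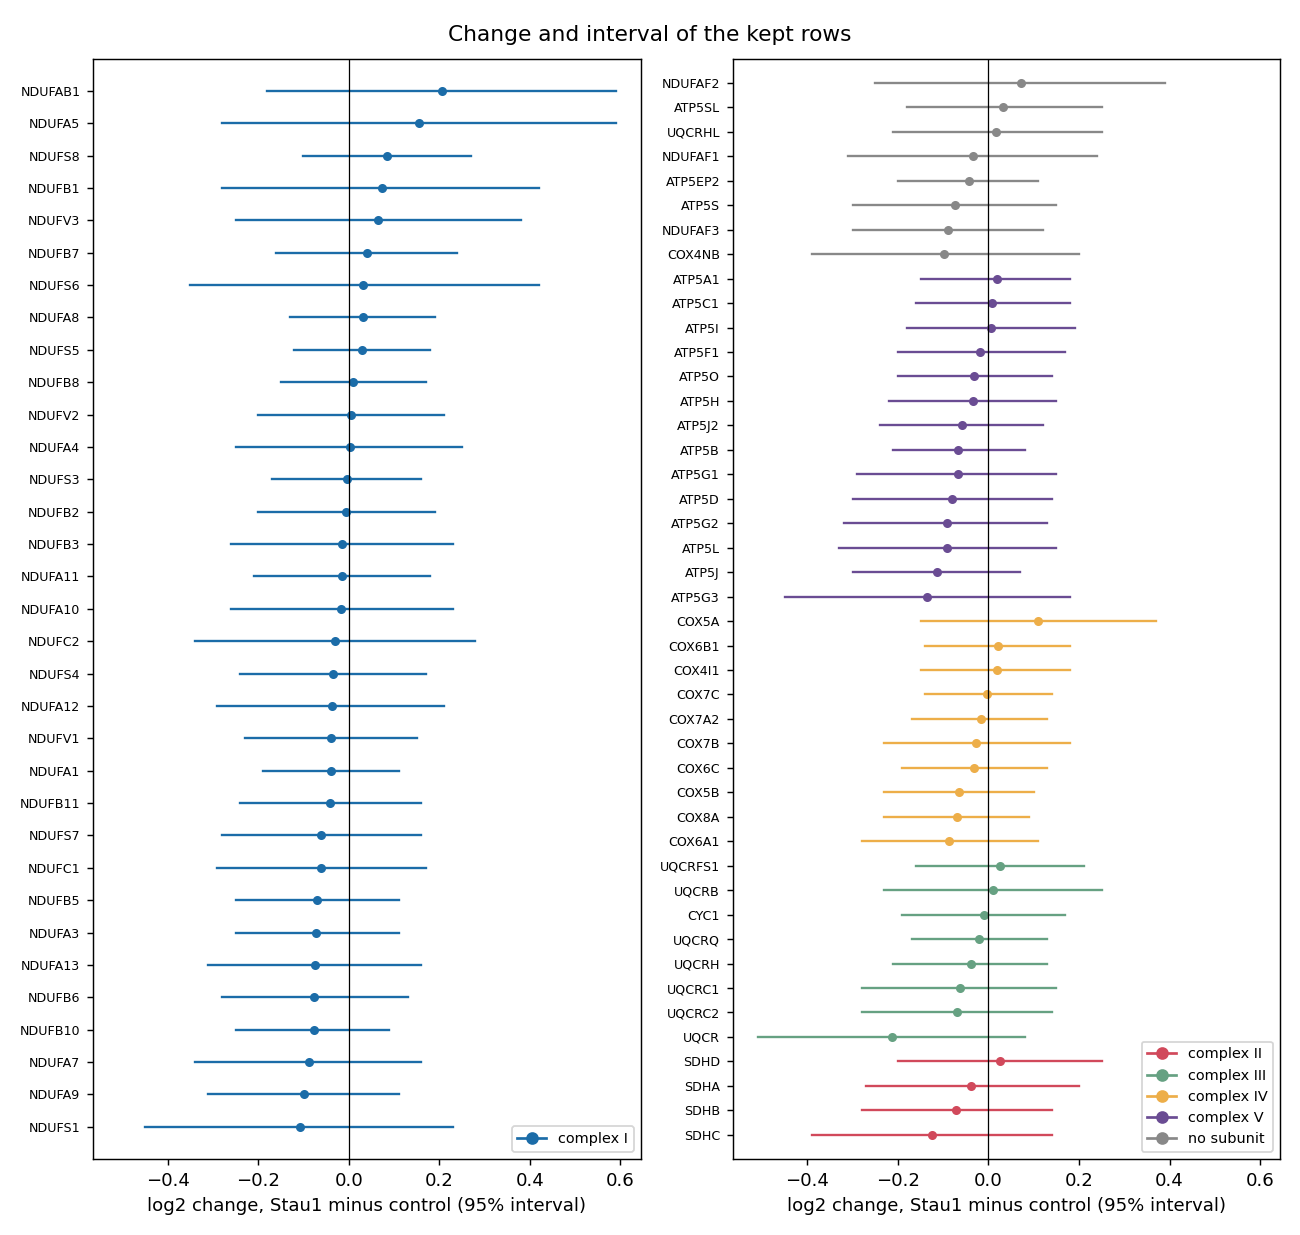
Log2 change, Stau1 minus control, of 77 of the 78 kept rows (points) with the 95% interval from limma (lines), complex I on the left and the other complexes and the rows that name no subunit on the right. Every interval includes 0, and NDUFAB1 and UQCR stand at the ends with 0.21 and -0.21.

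The median change over the 78 rows was -0.0328, against -0.00214 over all kept rows, and 25 of the 78 (32.1%) lay above 0 against 49.4% of all. Restricted to rows with a mean log2 intensity of at least 10, which 66 of the 78 and 2896 of all kept rows reach, the shares above 0 were 30.3% and 48.2%. By complex the medians were -0.0155 for complex I, -0.0554 for complex II, -0.0305 for complex III, -0.0224 for complex IV and -0.0627 for complex V. Complex V had 3 of 14 rows above 0 and complex I 13 of 34. Without control replicate 1 the median over the 78 was -0.0163, and those of complexes I and II were 0.00375 and 0.00771. These shifts are small beside the arrays of a group: the median deviation of the 78 rows from their own means was 0.0591, 0.0402 and -0.0262 in control replicates 1 to 3 and 0.017, -0.0315 and -0.0128 in Stau1 replicates 1 to 3, so the groups overlapped. When arrays were scaled to a common median in place of quantile normalization, the median over the 78 was 0.0379 and that over all kept rows 0.0679, and every complex had a median above 0, so the sign of the median depends on the scaling. It lay below that of all kept rows with both.

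**Figure D3:**
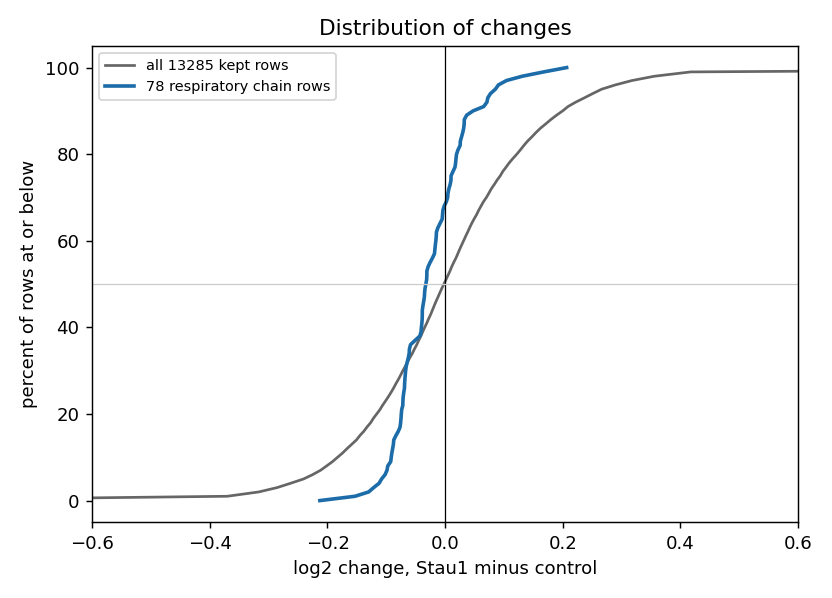
Percent of rows (y) with a log2 change, Stau1 minus control, at or below the value on x, for all 13285 kept rows and the 78 kept respiratory chain rows (x cut to 0.6 either way). The 78 rows lie between -0.21 and 0.21 and cross 50% at -0.0328. Their range is narrower than that of all kept rows, which are more numerous and dimmer (median log2 intensity 7.9 against 12.69).

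Complex I takes electrons from NADH through a core that is conserved from bacteria, to which many accessory subunits are added. The 7 core rows had a median change of -0.00431, and the 27 kept accessory rows a median of -0.016. NDUFS8, which carries iron-sulfur clusters near the quinone site, had log2 intensities of 13.2, 13.34 and 13.36 in the controls and 13.52, 13.27 and 13.37 with Stau1, a change of 0.08 ± 0.09 (SE). Among accessory subunits NDUFA9 was at 12.18, 11.95 and 11.93 against 11.79, 11.97 and 11.99 (-0.10 ± 0.10), and NDUFB10 at 13.25, 13.1 and 13.17 against 13.06, 13.06 and 13.17 (-0.08 ± 0.08). In each of the 3 the groups overlapped.

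NDUFAB1, the mitochondrial acyl carrier protein that is also an accessory subunit of complex I, had the highest change of the 78 and the widest spread over the arrays. Its log2 intensities were 12.44, 13.28 and 13.31 in control replicates 1 to 3 and 13.37, 13.15 and 13.12 in Stau1 replicates 1 to 3. Only control replicate 1 was low, at an intensity of 4376 against 9432 to 12310 on the other 5 arrays, and its bead standard error there was 160. The change of 0.21 ± 0.18 (SE, adjusted p = 0.999 in limma) was -0.08 without that array. NDUFAB1 was the only 1 of the 78 rows (1.28%) that lay more than 0.5 below all other arrays on control replicate 1, a gap seen in 1.12% of all kept rows.

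Complex II, succinate dehydrogenase, belongs to both the respiratory chain and the TCA cycle and has all its subunits encoded in the nucleus. SDHC, a membrane anchor, had log2 intensities of 10.75, 10.61 and 10.28 in the controls and 10.36, 10.46 and 10.44 with Stau1, a change of -0.13 ± 0.12 (SE) that was -0.02 without control replicate 1 and -0.26 without control replicate 3. SDHA, the flavoprotein, was at 11.58, 11.25 and 11.3 against 11.26, 11.27 and 11.47, and SDHB, the iron-sulfur subunit, at 13.03, 12.7 and 12.71 against 12.7, 12.74 and 12.78. These 3 rows were highest on control replicate 1. The other anchor, SDHD, went the other way on that array, at 10.82 against 11.02 to 11.13 on the other 5. Without control replicate 1 the changes of SDHA, SDHB and SDHD were 0.06, 0.04 and -0.07, each of the opposite sign to the value over 6 arrays (-0.04, -0.07 and 0.03).

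Complex III passes electrons from ubiquinol to cytochrome c. UQCR, one of its small accessory subunits (RefSeq UQCR11), had the lowest change of the 78 rows. Its log2 intensities were 9.2, 8.79 and 8.8 in control replicates 1 to 3 and 8.72, 8.69 and 8.74 in Stau1 replicates 1 to 3, so every Stau1 array lay below every control. Of all kept rows, 3.4% lay lower in this way. The change was -0.21 ± 0.14 (SE, 95% interval -0.51 to 0.08, adjusted p = 0.999 in limma). Groups that do not overlap fix the exact two-sided permutation test at 0.1, the smallest p that 3 against 3 allows, so it adds no further evidence. Control replicate 1 was the high array, and without it the change was -0.08. It was also smaller with median scaling (-0.12) and with the background taken from all rows (-0.12). The core proteins UQCRC1 and UQCRC2 had changes of -0.06 ± 0.10 and -0.07 ± 0.10 and the hinge protein UQCRH one of -0.04 ± 0.08, none past the threshold. The catalytic subunits CYC1 (cytochrome c1) and UQCRFS1 (the Rieske protein) had values of -0.01 ± 0.08 and 0.03 ± 0.09.

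Complex IV, cytochrome c oxidase, hands electrons to oxygen. COX5A was the row of complex IV with the highest value, 0.11 ± 0.12 (SE), from log2 intensities of 13.3, 13.75 and 13.88 in the controls and 13.84, 13.68 and 13.74 with Stau1. Control replicate 1 was again the low array, and without it the change was -0.06. COX6A1 was at 12.89, 12.78 and 12.68 against 12.84, 12.6 and 12.64 (-0.09 ± 0.09), and COX5B and COX8A had changes of -0.07 ± 0.08 and -0.07 ± 0.07. COX7C was the steadiest of these rows, between 14.77 and 14.87 on all 6 arrays. NDUFA4 was counted under complex I by its symbol and is now placed with complex IV. It had 13.24, 13.74 and 13.72 in the controls and 13.66, 13.58 and 13.47 with Stau1, a change of 0.00 ± 0.12.

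Complex V, the ATP synthase, had 11 of 14 rows below 0, and in limma with all 6 arrays none had an adjusted or unadjusted p under 0.05. ATP5J, a subunit of the peripheral stalk, had log2 intensities of 13.69, 13.69 and 13.44 in the controls and 13.44, 13.55 and 13.48 with Stau1, a change of -0.11 ± 0.09 (SE). Without control replicate 3 it was -0.20, with an unadjusted p under 0.05 and an adjusted p above it. ATP5B, the catalytic beta subunit, was at 15.04, 15.06 and 15.18 against 15, 15.04 and 15.04 (-0.07 ± 0.07). ATP5G1, ATP5G2 and ATP5G3 encode the same mature c subunit of the membrane ring, and all 3 were detected on all 6 arrays. ATP5G3 was at 8.38, 8.79 and 8.44 in the controls and 8.31, 8.56 and 8.34 with Stau1 (-0.14 ± 0.15), with control replicate 2 the high array, and the change was -0.01 without it. The changes of ATP5G1 and ATP5G2 were -0.07 ± 0.10 and -0.09 ± 0.10.

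**Figure D4:**
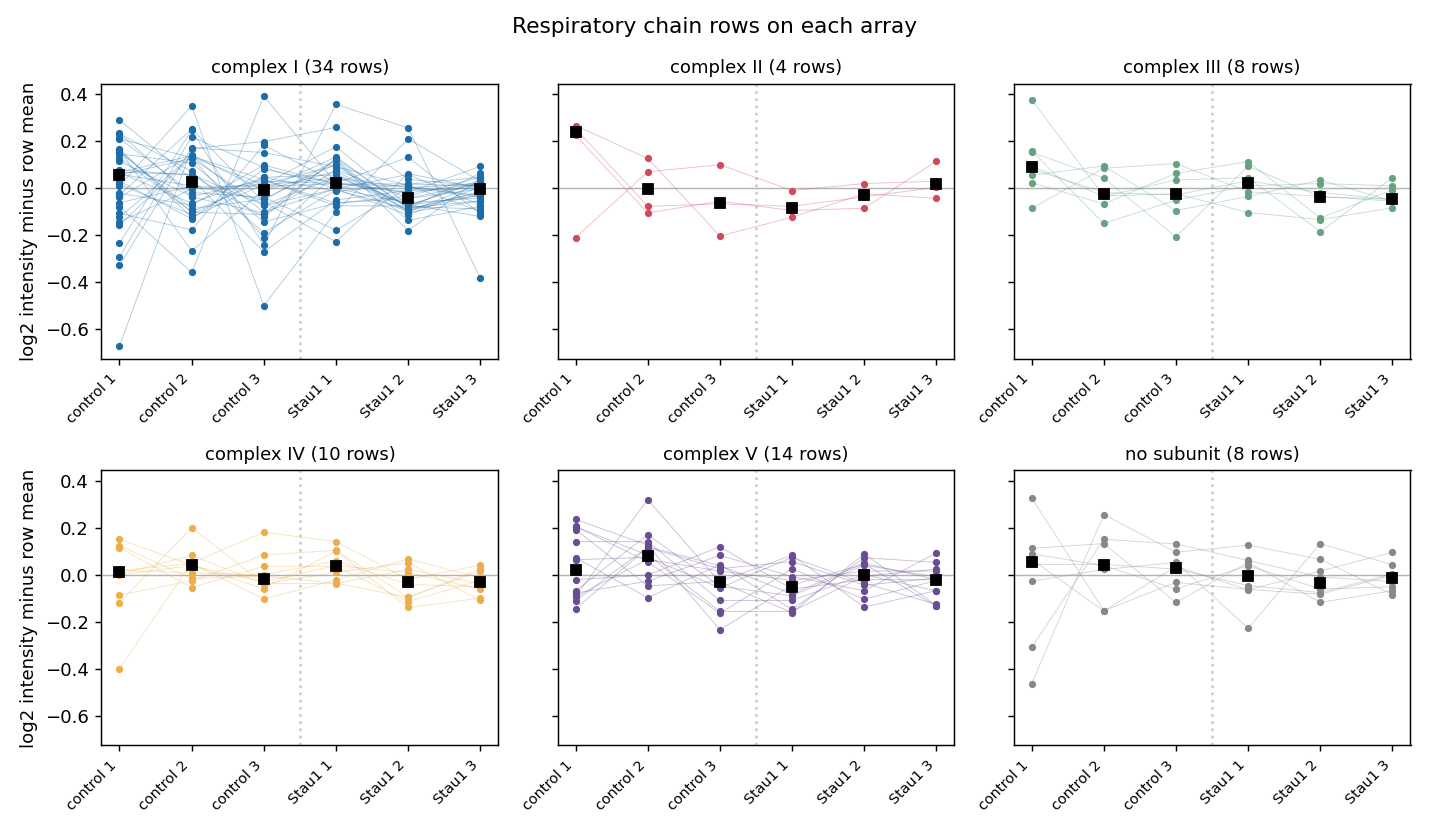
Log2 intensity of each kept row minus its mean over the 6 arrays (y), for each array (x), in a panel per complex and 1 for the rows that name no subunit. Each colored line is 1 row and black squares are medians. NDUFAB1 on control replicate 1 is the lowest point of all panels, and the medians of complexes I, IV and V lie within 0.08 of 0 on every array. The median of complex II is 0.238 on control replicate 1 and -0.0845 on Stau1 replicate 1. That of complex III is 0.0893 on control replicate 1.

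Among the rows that name no subunit, 8 of 9 were kept, and in limma with all 6 arrays 0 had an adjusted or unadjusted p under 0.05. ATP5S, once described as coupling factor B of the ATP synthase, had log2 intensities of 9.64, 9.64 and 9.62 in the controls and 9.55, 9.52 and 9.6 with Stau1. The groups did not overlap, at a change of -0.08 ± 0.11 (SE), and the sign was positive with median scaling (0.0192). NDUFAF2 was at 11.49, 12.21 and 12.05 against 12.08, 12.02 and 11.87, low on control replicate 1 only, and its change of 0.07 ± 0.15 was -0.14 without that array. NDUFAF1, NDUFAF3, COX4NB and ATP5SL had changes of -0.04, -0.09, -0.10 and 0.03.

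UQCRHL and ATP5EP2 are near-identical copies of UQCRH and of the gene of the epsilon subunit of ATP synthase, so their rows may read the parent transcripts. UQCRHL was low on control replicate 1 (14.03, against 14.31 to 14.49 on the other 5 arrays) while UQCRH was not (13.62, against 13.47 to 13.66). The change of UQCRHL was 0.02 ± 0.11 (SE) over 6 arrays and -0.13 without that array. ATP5EP2 was between 14.42 and 14.57 on all 6 arrays, with a change of -0.04 ± 0.07.

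Most of the spread among the 78 rows lay in the controls. The median SD was 0.131 in control and 0.067 in Stau1 for the 78, and 0.174 and 0.117 for all kept rows. Among rows with a mean log2 intensity of at least 10 the difference from the rest was smaller: 0.123 and 0.066 for the 66 rows of the chain, 0.139 and 0.08 for all 2896. Control replicate 1 was the highest array for 33 of the 78 rows (42.3%, against 26.9% of all kept rows) and the lowest for 17 (21.8%, against 25.5%). It stood more than 0.2 above all other arrays for 4 rows (COX4NB, NDUFA12, SDHB and UQCR; 5.13%, against 8.2% of all kept rows) and more than 0.2 below for 6 (COX5A, NDUFA4, NDUFAB1, NDUFAF2, NDUFB3 and UQCRHL; 7.69%, against 8.96%). The other 5 arrays had 0 to 2 such rows each way.

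Leaving out 1 array at a time changed no call among the 78. Without control replicate 3, limma called 39 of all kept rows (0.294%) and 0 of the 78, and at an unadjusted p under 0.05 it gave 12.7% of all kept rows and 3 of the 78, ATP5J, ATP5L and SDHC, each lower with Stau1. Without control replicate 1 it called none, and at an unadjusted p under 0.05 it gave 4.14% of all kept rows and 2 of the 78, NDUFA4 and UQCRHL, both lower. The other 4 fits gave 0 of the 78 at that level.

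Genes around the chain were read from related lists, and none of their kept rows passed the adjusted threshold. Of 4 further subunits under older names 3 were kept, with C14ORF2 at -0.10 ± 0.10 (SE). All 77 rows of mitochondrial ribosomal proteins were kept, with a median of -0.00966 and 0 at an unadjusted p under 0.05. In this list MRPS6 had the lowest p and a change of 0.19 ± 0.09, which was 0.10 without control replicate 1. Of the complex I assembly factors under other names 10 of 11 were kept, 0 with an unadjusted p under 0.05, and FOXRED1 was at -0.13 ± 0.11, or -0.05 without control replicate 1. Assembly factors of complexes II to V were all kept (18 of 18), with 1 higher at an unadjusted p under 0.05: COX19, a copper-handling protein, at 7.43, 7.28 and 7.52 in the controls and 7.8, 7.58 and 7.79 with Stau1 (0.32 ± 0.15, and 0.06 with the background taken from all rows). That 1 of 18 stands beside 2.41% of all kept rows. Electron carriers and entry points had 12 of 14 kept and 0 at that level, and DHODH, which feeds electrons from pyrimidine synthesis, was at 0.20 ± 0.14 close to background, and at 0.01 with the background taken from all rows. A row that was not kept can still hold signal, since the detection p of a row of several probes combines them: ETFB was detected on no array at intensities of 2134 to 3001, and GABPB2, a regulator, on 2 arrays at 1799 to 3118.

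Transcriptional regulators of the chain had 10 of 12 rows kept and 2 higher at an unadjusted p under 0.05 (2.41% of all kept rows were), PPARGC1B and PPRC1, both coactivators of the PGC-1 family. PPARGC1B was at 6.37, 5.88 and 6.24 in the controls and 6.74, 6.49 and 6.8 with Stau1, so the groups did not overlap (4.51% of all kept rows lay higher in this way). Its change was 0.52 ± 0.17 (SE, adjusted p = 0.999 in limma), at intensities of 119 to 193. The size depends on the background step: it was 0.04 with the background taken from all rows, 0.28 with no background correction and 0.37 with an offset of 50. PPRC1 was at 0.26 ± 0.12 with overlapping groups. NRF1, TFAM and YY1 were at 0.06 ± 0.13, -0.01 ± 0.10 and 0.15 ± 0.10, with NRF1 close to background at intensities of 89.9 to 116.7. GABPA, named for the factor GABP, was detected on no array at intensities of 185.2 to 350.6 and was not kept. In the TCA cycle and pyruvate dehydrogenase all 18 rows were kept and 1 was lower at an unadjusted p under 0.05 (1.32% of all kept rows were): IDH3A, a subunit of NAD-dependent isocitrate dehydrogenase, at 10.2, 10.11 and 9.97 against 9.65, 9.95 and 9.9 (-0.26 ± 0.12).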

How the data were processed

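The authors deposited 1 gene-level table from BeadStudio with, for each array, a signal intensity (normalization none per the file headers), a detection p-value, a bead count and a bead standard error. From these intensities, normexp was fitted here with the background inferred from the detection p-values of the 30932 rows of 1 probe (whole bead counts and detection p-values in steps of 1/759 within 0.002 of a step), an offset of 16 was added, and arrays were quantile-normalized and taken to log2 (limma 3.58.1, R 4.3.3). Rows were kept where at least 3 of 6 arrays gave a detection p under 0.05. lmFit and eBayes with a variance trend gave changes (Stau1 minus control), standard errors and 95% intervals, with Benjamini-Hochberg adjustment over all 13285 kept rows and a threshold of 0.05. Scripts were tested on simulated data. The number of arrays, 3 per group, limits the precision. The study's methods state no test for this comparison, although its results report a few probes past a fold and a p-value threshold for it. The t-test that the methods state for immunoprecipitated RNA was run as an alternative on the same values.

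A row can combine several probes, which the table does not separate, and gene symbols are those of the array's design. RefSeq names and promoters (GRCh38.p14) came from reference tables. Motifs were searched with Python 3 scripts. Named rows are, in each complex, the 4 kept subunit rows with the lowest p, every row not kept, the isoform families, every row that names no subunit and, from each related list, the row with the lowest p. PPRC1, NRF1, TFAM, YY1, CYC1, UQCRFS1, COX7C, ATP5L, NDUFA12 and NDUFB3 and others outside that rule were named after their values were seen. The members, lists and tests were chosen with earlier results of these data known. Same-numbered samples were not treated as pairs: the correlations of their deviations were 0.02, 0.26 and -0.14. Alternatives covered background, offset, normalization, filter, variance trend, array weights, replicate block, test, threshold and leaving out each array with the 6-array preparation kept. A few single rows are not reported here.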

Additional observations from a re-analysis of the deposited data

How the results depend on the processing

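The count of changed rows was 0 among the 78 and 0 among all kept rows under every setting run with all 6 arrays and an adjusted p, and 496 of all kept rows (0 of the 78) at limma's unadjusted p under 0.05. Leaving out 1 array gave 0 to 39 rows (39 without control replicate 3) and 0 of the 78. The replicate number as a block changed no call: it gave 0 rows, with a lowest adjusted p of 0.985 among the 78. No slide was used as a block, since slides are not named in the table. Median scaling moved the median of all kept rows to 0.0679, of the 78 to 0.0379, of complex I to 0.061, III to 0.0294, IV to 0.0428 and V to 0.017. It also turned the sign of SDHA (0.0546), UQCRC2 (0.0179), UQCRC1 (0.0318), UQCRH (0.027), ATP5G2 (0.0139), ATP5S (0.0192), COX4NB (0.00534), NDUFAF1 (0.0561) and NDUFAF3 (0.0118). Array weights turned SDHA (0.0744), SDHD (-0.00746), COX4NB (0.00224), NDUFAF2 (-0.101) and UQCRHL (-0.0728). With 1 array left out, complex IV ran from -0.0392 to 0.0115, NDUFAB1 from -0.0801 to 0.359, SDHA from -0.108 to 0.0623, SDHB from -0.13 to 0.0376, SDHD from -0.0729 to 0.0836, UQCRC1 from -0.105 to 0.0149, UQCRH from -0.0954 to 0.000341, COX5A from -0.0609 to 0.227, COX4NB from -0.198 to 0.04, NDUFAF1 from -0.111 to 0.0697, NDUFAF2 from -0.14 to 0.217, UQCRHL from -0.133 to 0.0979 and ATP5SL from -0.0359 to 0.0744. Of the 35 named rows, 31 moved by over 1.5 times when some 1 array was left out, 29 with median scaling and 6 with the background from all rows. None of these values passed the threshold, and the causes were not tested. Over the named rows, 14 of 349 values with all arrays and 14 of 210 with 1 array left out had the opposite sign. NDUFA5 and NDUFS6 lie close to background, where the arrays give least precision.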
